A study of Mus musculus with 3 samples.

Results

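The cells described here were 123 of the 28971 kept cells of 3 frozen lots of mouse fetal ovarian somatic cells. They were selected on their measured values, as cells with at least 1 UMI (unique molecular identifier, 1 counted mRNA molecule) of Pax2 and at least 1 UMI of Cdh16, Lhx1 or Pax8, and with fewer than 5 UMIs of the germ cell gene Dazl. There were 43 such cells among 9711 kept cells of lot 26, 33 among 8553 of lot 29 and 47 among 10707 of lot 30. The working label for these genes was mesonephric tubule cells, and the data went against that label for a large part of the cells, so they are called the selected Pax2 cells below.

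Each lot pooled E12.5 fetal ovaries from the litters of 10 CD1 mice, and the mesonephros had been cut away from them. Germ cells were depleted with magnetic antibodies to SSEA1 and CD31, and the cells were frozen. The thawed cells were profiled by droplet scRNA-seq from 10X Genomics. All lots belong to 1 condition (wild type, untreated), so the selected cells were compared with other cells of the same lots, and the lot served as the replicate (n = 3 lots, each a pool of embryos).

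The mesonephros is the transient kidney that lies along the fetal gonad. It holds the Wolffian (nephric) duct, tubules that open into it, and from midgestation the Müllerian duct, the forerunner of the oviduct and uterus. Pax2 and Pax8 are paired-box transcription factors of this whole epithelial lineage, Lhx1 is a LIM homeodomain factor that both ducts need, and Cdh16 is kidney-specific cadherin. Wnt7a is known as a signal made by the Müllerian duct epithelium, and Wnt9b and Gata3 are known from the Wolffian duct. Pax8 is also known in supporting-like cells of the gonad, which form the rete.

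The tables held 87494974 to 141920060 UMIs per lot. The selected cells had a median of 14216 UMIs in lot 26, 13682 in lot 29 and 13031 in lot 30, against 11119.5, 8941 and 11589.5 UMIs in the other kept cells. Since the rule asks for single UMIs, deeper cells meet it more readily. After every cell was thinned to 4000 UMIs, the rule found 15 of 9457 cells in lot 26, 10 of 8301 in lot 29 and 13 of 10378 in lot 30. Between 19 and 30 barcodes were shared by each pair of lots, and 0 of these were selected cells. Scrublet called 3, 2 and 8 of the selected cells doublets (lots 26, 29 and 30). These were 6.98%, 6.06% and 17.0% of the selected cells, against 6.96%, 3.96% and 7.43% of all kept cells, and with called doublets removed 357 genes were higher and 186 lower in the comparison with all other kept cells described below.

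The selected cells were 0.443% of the kept cells in lot 26 (exact Clopper-Pearson 95% interval 0.321% to 0.596%), 0.386% in lot 29 (0.266% to 0.541%) and 0.439% in lot 30 (0.323% to 0.583%). The mean was 0.423% ± 0.0318 (SD, n = 3 lots), and the intervals, which cover counting error only, overlap between all lots. The share was 0.169% with at least 2 UMIs of Pax2, 0.161% with at least 2 of the 3 partner genes, and 0.135% in the thinned cells.

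Most selected cells passed the rule by Pax8 and not by the genes more closely tied to the mesonephros. Pax8 was the single partner in 71 of the 123 cells, which were 26 of 43 in lot 26, 11 of 33 in lot 29 and 34 of 47 in lot 30. The other 52 cells held Lhx1 or Cdh16 (17, 22 and 13 cells), and 23 cells held all 3 partners. Pax2 itself was present as 1 UMI in 75 cells and as 2 or more in 48. The plot of partner genes by lot shows that Pax8 alone was the largest class in lots 26 and 30, while in lot 29 it was as frequent as Pax8 with Lhx1 (11 cells each).

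**Figure D1:**
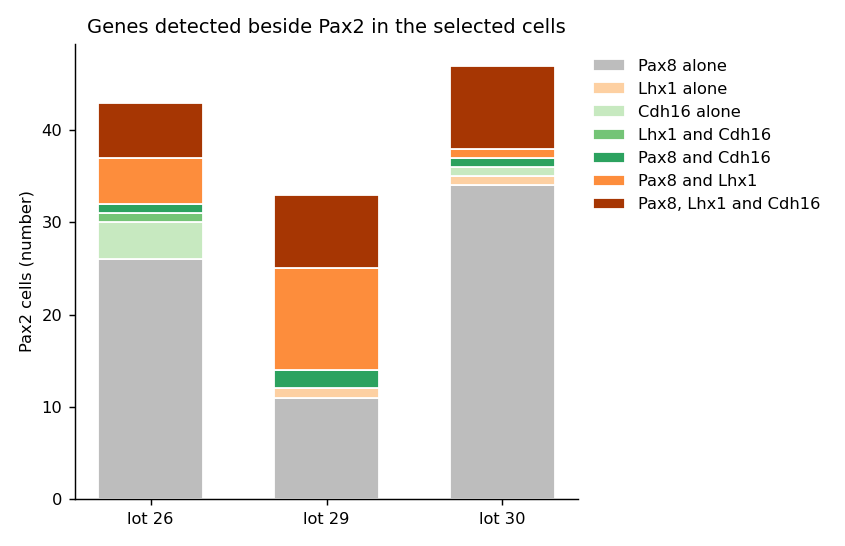
Number of selected Pax2 cells in each lot (y axis), stacked by which of the genes Pax8, Lhx1 and Cdh16 had at least 1 UMI beside Pax2. The bars reach 43, 33 and 47 cells, of which 26, 11 and 34 held Pax8 alone.

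The 2 kinds of selected cells differed in epithelial and gonadal genes. These values are descriptions, since the cells were split by the genes that chose them. Epcam, an epithelial adhesion molecule, was at 496, 593 and 652 CPM (UMIs of the gene per 1e6 UMIs, summed over the cells of a lot) in the cells with Lhx1 or Cdh16 of lots 26, 29 and 30, and at 18.6, 6.48 and 15.7 CPM in the cells with Pax8 alone. In all other kept cells it was at 47.7, 40.1 and 30.9 CPM. Wfdc2, a secreted protease-inhibitor family protein of reproductive tract epithelia, was at 850, 861 and 994 CPM against 18.6, 90.7 and 7.84 CPM. In every lot the cells with Pax8 alone were thus below the cells with Lhx1 or Cdh16 in these genes.

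The gonadal genes had the opposite order. Gata4, a transcription factor of the early gonad, was at 149, 90.7 and 127 CPM in the cells with Pax8 alone and at 25.3, 10.3 and 25.5 CPM in the cells with Lhx1 or Cdh16. Wnt4, the signal of ovarian supporting cells that is also made in kidney tubules, was at 680, 350 and 674 CPM against 221, 224 and 91.7 CPM. A UMI of Gata4 or of Nr5a1, the steroidogenic factor of gonad and adrenal, was found in 58 of the 71 cells with Pax8 alone and in 15 of the 52 others. By lot these shares were 88.5%, 63.6% and 82.4% against 35.3%, 18.2% and 38.5%.

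Cell by cell, the sum of 32 epithelial junction and polarity genes exceeded the 95th percentile of the other kept cells of its lot in 40 of the 52 cells with Lhx1 or Cdh16 and in 5 of the 71 with Pax8 alone. Its median was 16.6, 13.6 and 25.8 UMIs per 10000 in the cells with Lhx1 or Cdh16, 3.84, 2.52 and 3.66 in the cells with Pax8 alone, and 3.81, 3.37 and 3.59 in the other kept cells. The sum of 11 gonadal transcription factors had medians of 1.30, 1.20 and 1.98 UMIs per 10000 in the cells with Lhx1 or Cdh16, 7.94, 5.20 and 8.14 in the cells with Pax8 alone, and 8.73, 8.35 and 9.94 in the other kept cells. On both sums the cells with Pax8 alone lay near the other kept cells. Some single genes differed. In thinned cells, Wnt4 had a UMI in 78.6% of the cells with Pax8 alone. It had one in 91.1% of unselected cells with Pax8 and Aldh1a3 and in 57.1% of the other kept cells. In the same order the shares were 4.29%, 5.94% and 0.539% for Ret, and 24.3%, 13.4% and 19.3% for Nr5a1. The first 2 sets were both chosen on Pax8.

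**Figure D2:**
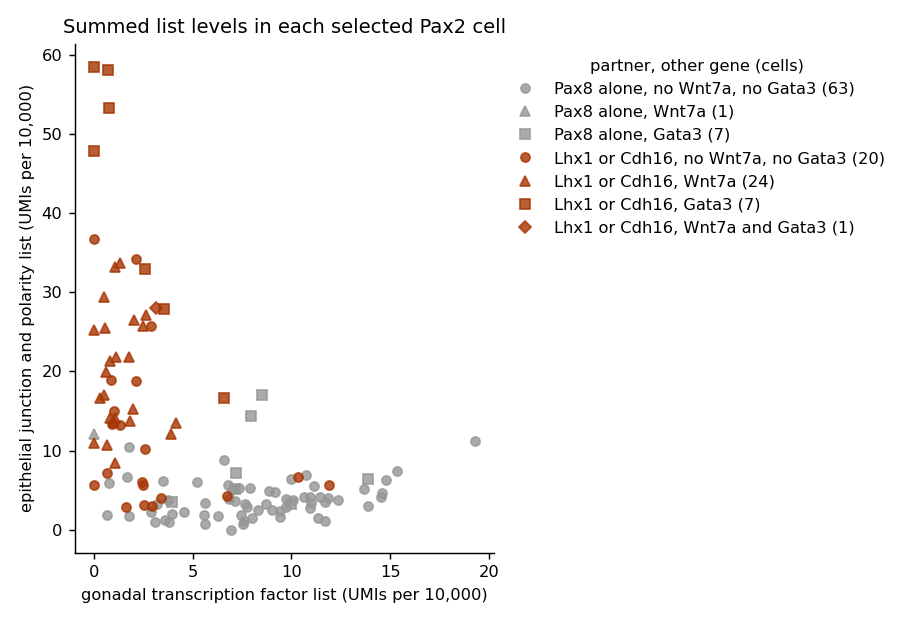
Each point is 1 of the 123 selected Pax2 cells, with the summed UMIs per 10000 of the gonadal transcription factor list (x axis) and of the epithelial junction and polarity list (y axis), coloured by partner gene and shaped by Wnt7a and Gata3. Cells with Lhx1 or Cdh16 mostly rise along the y axis, and cells with Pax8 alone mostly lie along the x axis.

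Cells just outside the rule were examined in the same way, with no test. The 35 selected cells that passed with 1 UMI of Pax2 and 1 UMI of a single partner had Epcam at 15.6, Wfdc2 at 3.47 and Gata4 at 146 CPM (lots pooled). The 537 cells with Pax2 but no partner had these genes at 18.8, 16.1 and 137 CPM. The 18 cells with at least 2 partners but no Pax2 had Epcam at 290, Wfdc2 at 149 and Gata4 at 60.7 CPM. Those 18 cells also had Aldh1a3, the retinoic acid enzyme that marks supporting-like cells, at 163 CPM, against 2.80 CPM in all other kept cells.

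Wnt7a was rare outside the selection. It had a UMI in 26 of the 123 selected cells (9, 8 and 9 in lots 26, 29 and 30) and in 16 of the 28848 others, so 61.9% of all cells with Wnt7a were selected ones. The lots differed in this: the selected cells were 9 of 21 cells with Wnt7a in lot 26, 8 of 10 in lot 29 and 9 of 11 in lot 30. It was found in 0 of 2966 cells with the surface epithelium genes Upk3b and Krt19, which allows a share of cells with a UMI of up to 0.101% and does not bound the share of cells that express the gene. In the thinned cells, 9.84% of the selected cells and 0.0178% of the others had a Wnt7a UMI. All but 1 of the 26 cells held Lhx1 or Cdh16. Wnt7a lies on the minus strand of mouse chromosome 6 (GRCm38, 91363981 to 91411363).

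In the cells with Wnt7a, several of the genes that rose most in the whole selection were at high levels. Wfdc2 was at 1284, 1029 and 1324 CPM in them, Prss23, a secreted serine protease, at 496, 479 and 544 CPM, and Met, the receptor of hepatocyte growth factor, at 137, 225 and 173 CPM. Spp1 (osteopontin) was at 329, 76.9 and 410 CPM. The gonadal genes were low in these cells: Gata4 had 5 UMIs, Nr5a1 4 and Lhx9 4 over all lots. Hoxb7, a homeobox gene whose promoter is widely used to mark the nephric duct, was at 173, 136 and 70.9 CPM.

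A further 15 selected cells held Gata3 (8, 2 and 5 cells), of which 1 also held Wnt7a. Gata3 is not particular to them, as 1475 other kept cells also had a UMI of it. Its share was 12.2% in the selected cells and 5.11% in all other kept cells (5.74% and 1.73% thinned). It was 11.5% in cells with Upk3b and Krt19 and 10.2% in unselected cells with Pax8 and Aldh1a3 (3.15% and 4.46% thinned). The 15 cells were deep, with medians of 19099, 27014 and 16686 UMIs, against 14216, 13682 and 13031 in all selected cells. With 2 cells in lot 29 they were too few for a test, so their levels are given as descriptions over pooled lots. They had Wnt9b at 30.1 CPM (10 of its 11 UMIs in the selected cells), the membrane protein gene Mal at 54.2 and the claudin gene Cldn4 at 78.3 CPM, and Spink8, a protease inhibitor, at 78.3 CPM. In the cells with Wnt7a the same genes were at 2.16, 0, 23.7 and 2.16 CPM. Npy and Pnoc, which encode the neuropeptide Y and nociceptin precursors, had 4 and 0 UMIs in the cells with Gata3, against 279 and 80 UMIs in the cells with Wnt7a. The heat map of levels sets these cells beside the other sets, and 7 of the 15 cells with Gata3 had Pax8 as their single partner. Over all selected cells with Pax8 alone, Wnt9b, Mal and Spink8 had 0 UMIs and Cldn4 had 2. The levels of Wnt9b, Mal and Spink8 given for the cells with Gata3 thus came from those that held Lhx1 or Cdh16.

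**Figure D3:**
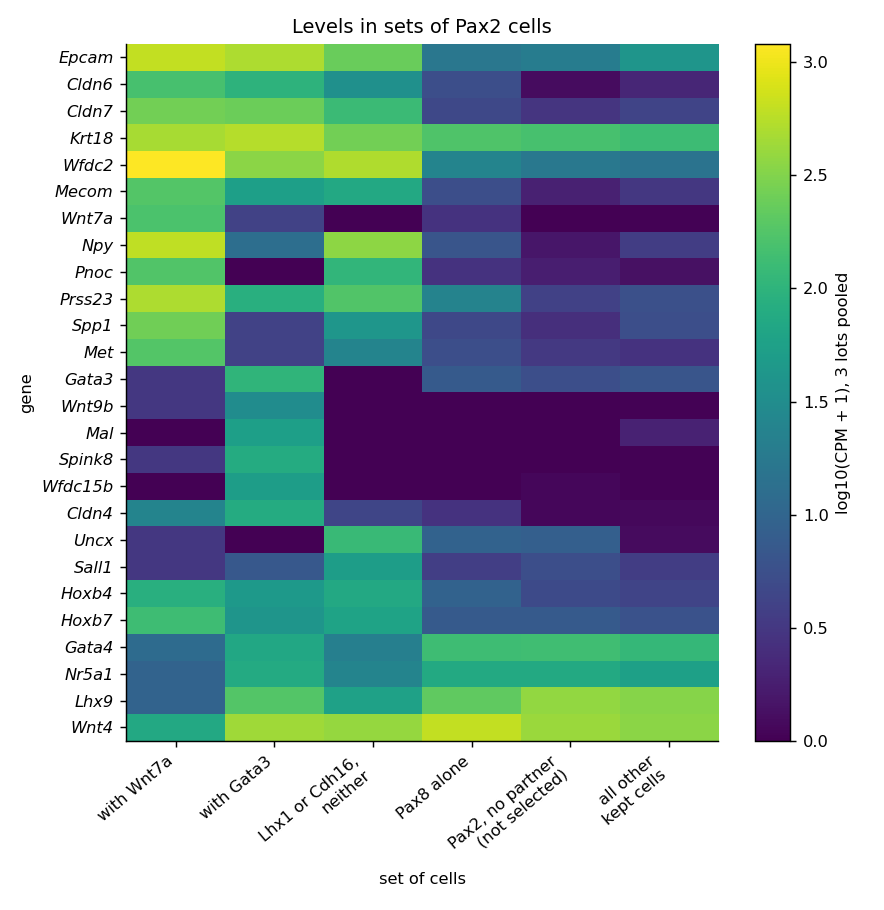
Levels of 26 genes (rows) as log10(CPM + 1), lots pooled, in 4 sets of selected Pax2 cells, in the Pax2 cells without a partner and in all other kept cells (columns). Epcam, Wfdc2 and Cldn7 are high in the first 3 columns, Spp1 and Met are highest in the Wnt7a column and Spink8 and Mal in the Gata3 column, while Gata4 is highest in the last 3 and Wnt4 is lowest in the Wnt7a column. The Gata3 set shares 7 cells with the set of Pax8 alone.

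To show what sets the whole selection apart, its UMIs were summed per lot and compared with the sums of all other kept cells by the quasi-likelihood test of edgeR, with p-values adjusted after Benjamini and Hochberg. The genes of the rule were left out of all counts. Of 14718 genes tested, 308 were higher in the selected cells (2.09%) and 150 were lower (1.02%). With the lot as a block, 521 were higher and 614 lower. Leaving out lot 26 gave 114 higher and 31 lower genes, leaving out lot 29 gave 134 and 27, and leaving out lot 30 gave 219 and 87. The summed levels mix the 2 kinds of cells above, so a level typical of 1 kind is diluted by the other.

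Among the 15 genes that rose most were Wfdc2 and the neuropeptide genes Npy and Pnoc. Wfdc2 was at 371, 641 and 282 CPM in the selected cells against 17.4, 13.5 and 11.3 CPM in the others (log2 fold change 4.83 ± 0.32 SE, edgeR adjusted p = 1.86e-05). Npy was at 255, 310 and 45.3 CPM against 3.12, 3.43 and 1.80 CPM (6.08 ± 0.56, edgeR adjusted p = 0.000217). Pnoc was at 50.9, 125 and 9.91 CPM against 0.527, 0.460 and 0.199 CPM, with the largest fold of the 15 (7.16 ± 0.71, edgeR adjusted p = 0.000342). All selected sums were above all sums of the other cells for these genes, a gap that the choice of named genes favours. For Npy and Pnoc lot 30 was the lowest of the selected sums.

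The epithelial barrier genes were high in all lots. Cldn6 was at 69.7, 64.5 and 39.6 CPM against 1.32, 1.29 and 0.853 CPM, and Cldn7 at 89.8, 129 and 134 CPM against 4.89, 2.39 and 2.48 CPM. Their log2 fold changes were 5.55 ± 0.30 (edgeR adjusted p = 4.91e-06) and 5.07 ± 0.30 (edgeR adjusted p = 8.71e-06). Epcam rose less, by 2.71 ± 0.29 on the log2 scale (221, 426 and 192 CPM against 47.7, 40.1 and 30.9 CPM). Among regulators, Mecom, a zinc finger factor of the nephric lineage, rose by 4.64 ± 0.36, and Dach2, a cofactor known from the Müllerian duct, by 5.26 ± 0.21. Met rose by 4.64 ± 0.36 and Notum, an enzyme that inactivates Wnt ligands, by 4.03 ± 0.22. Notum is not particular to the selection. It had a UMI in 36.6% of the selected cells and in 32.7% of unselected cells with Pax8 and Aldh1a3 (18.9% and 15.8% in thinned cells). The other leading genes were Prss23 (5.04 ± 0.20), Spp1 (3.64 ± 0.43), Rprm (3.24 ± 0.32), Hoxb7 (3.14 ± 0.38) and Emid1 (2.88 ± 0.15). Their selected sums were higher in all lots, as the choice of named genes required. Without lot 26, the edgeR adjusted p was 0.0528 for Spp1 and 0.0601 for Hoxb7.

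**Figure D4:**
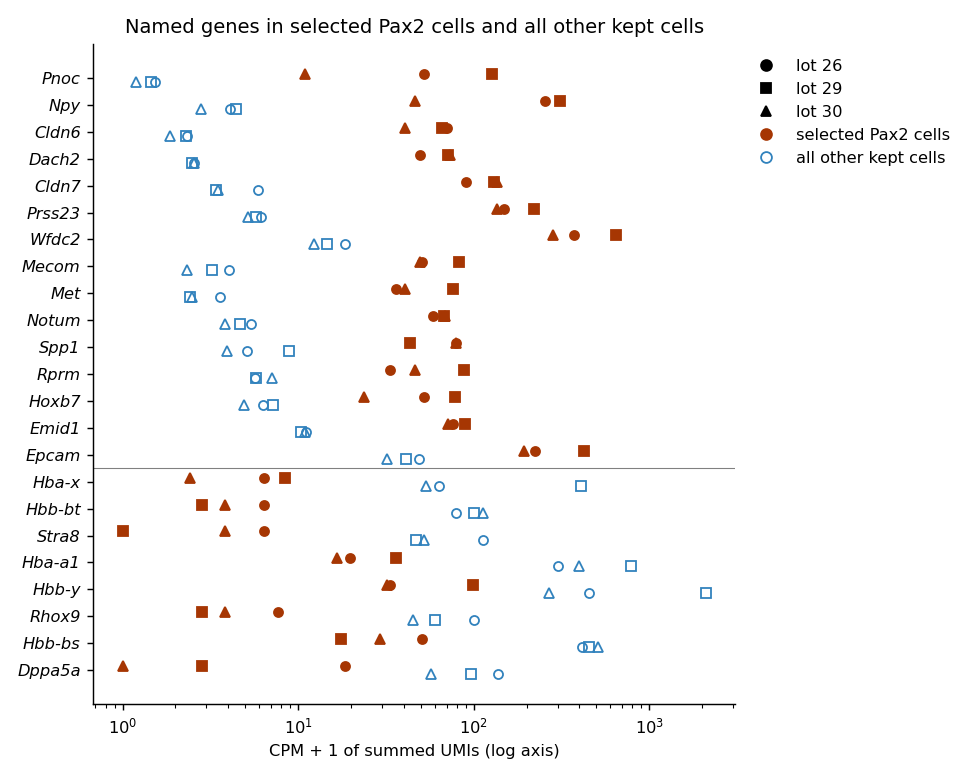
Levels of the 15 genes with the largest rise and the 8 with the largest fall, as CPM + 1 of summed UMIs on a log axis. Filled symbols are the selected Pax2 cells and open symbols all other kept cells, 1 symbol per lot. The 23 genes were chosen for a call, the same direction in every lot and a large fold, so gaps between the groups follow largely from that choice.

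The genes that fell most belonged to red blood cells and germ cells. Globin genes were 5 of the 8: Hba-x, Hbb-bt, Hba-a1, Hbb-y and Hbb-bs. Hbb-bt was at 5.36, 1.84 and 2.83 CPM against 78.3, 99.0 and 112 CPM (log2 fold change -4.90 ± 0.36, edgeR adjusted p = 4.54e-05). Stra8, the gene of meiotic entry, was at 5.36, 0 and 2.83 CPM against 112, 46.2 and 51.1 CPM (-4.63 ± 0.72, edgeR adjusted p = 0.00560). Rhox9 and Dppa5a, both known from germ cells, fell by 4.17 ± 0.58 and 3.88 ± 0.65. The rule's own limit on Dazl bears on the germ cell genes, and its part in these values was not tested. Several of these calls were lost with 1 lot left out, which leaves fewer sums in each group. Without lot 26 the edgeR adjusted p was 0.158 for Hba-x and 0.148 for Hbb-y. Without lot 29 it was 0.0934 for Stra8, 0.124 for Rhox9 and 0.201 for Dppa5a. Against other cells of matched depth, Hbb-bt had an edgeR adjusted p of 0.129.

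Gene lists by role were then counted, beside a median log2 fold change of -0.08 over all genes tested. Of the 31 epithelial junction and polarity genes tested, 16 rose and 0 fell (median 2.19). They included Cldn3 (5.35 ± 0.41), Cldn4 (6.79 ± 0.51), the tight junction gene Ocln (4.33 ± 0.44), the polarity gene Crb3 (4.05 ± 0.35) and the trafficking gene Rab25 (5.69 ± 0.56). Of the 16 calls, 12, 11 and 15 held without lot 26, 29 and 30, and the 5 genes named here were among those that held each time. Cdh1, the classical epithelial cadherin, was at only 5.36, 5.53 and 7.08 CPM against 2.57, 1.58 and 1.29 CPM and did not pass (edgeR adjusted p = 0.144). Among 4 simple epithelial keratins, Krt18 rose (1.11 ± 0.17, edgeR adjusted p = 0.00481), while Krt19 (-0.12 ± 0.17) and Krt7 (-0.39 ± 0.17) did not pass. The call of Krt18 was lost without lot 26, and with the lot as a block 2 keratins rose (Krt18 and Krt8).

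Of the 16 nephric transcription factors tested, 3 rose, Mecom and Grhl2 among them, and 0 fell, and with the lot as a block 7 rose and 1 fell. Of the 3 calls only that of Grhl2 was lost with a lot left out (lot 29). Emx2, which both ducts and the gonad need, was at 225, 219 and 246 CPM against 174, 181 and 188 CPM and did not pass (edgeR adjusted p = 0.434). Gata3 was at 22.8, 3.69 and 21.2 CPM against 6.10, 4.19 and 5.88 CPM (edgeR adjusted p = 0.0844, and 0.00250 with the lot as a block).

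Signals and receptors of the nephric duct rose in 8 of 20 genes tested, with 0 that fell (median 1.05). With the lot as a block 9 rose and 3 fell, and in DESeq2 10 rose and 1 fell. Gfra1, the co-receptor of GDNF, was at 22.8, 55.3 and 31.1 CPM against 0.591, 1.38 and 0.441 CPM (5.37 ± 0.56, edgeR adjusted p = 0.000411). Its partner receptor Ret was at 8.04, 3.69 and 7.08 CPM against 1.80, 0.863 and 1.33 CPM (edgeR adjusted p = 0.0545, and 0.0234 with the lot as a block). The 2 genes lay in different cells of the selection. Gfra1 had a UMI in 24 of the 52 cells with Lhx1 or Cdh16 and in 6 of the 71 with Pax8 alone, and Ret in 1 and 7. Unselected cells with Pax8 and Aldh1a3 held Ret in 12.2%. The factors Etv4 and Etv5, which act downstream of Ret and FGF receptors, rose by 2.33 ± 0.46 and 1.26 ± 0.28, and Fgf9 by 2.43 ± 0.35. Wnt9b was at 10.7, 3.69 and 1.42 CPM against 0.0559, 0.0115 and 0.0284 CPM, on 11 and 12 UMIs (7.16 ± 0.94, edgeR adjusted p = 0.00217). Gdnf, the ligand, had 3 UMIs in the selected cells. Of the 8 calls, 2 held without lot 26 (Gfra1 and Npnt), 3 without lot 29 (Gfra1, Wnt9b and Fgf9) and 6 without lot 30.

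Of 6 Müllerian duct genes tested, 3 rose: Wnt7a (9.43 ± 0.55, edgeR adjusted p = 7.41e-06), Dach2 and Celsr1 (1.16 ± 0.24). Wnt7a was at 45.6, 33.2 and 31.1 CPM against 0.0959, 0.0230 and 0.0213 CPM. Wnt5a, which is made by duct mesenchyme and gonadal stroma, fell by 1.21 ± 0.17. The call of Celsr1 was lost without lot 26 or lot 29, and that of Wnt5a without lot 26. The promoter of Wnt7a is shown, since this gene was rare outside the selection, as the 250 bases before the RefSeq start (GRCm38.p6, chr6:91411354-91411603, minus strand).
Wnt7a: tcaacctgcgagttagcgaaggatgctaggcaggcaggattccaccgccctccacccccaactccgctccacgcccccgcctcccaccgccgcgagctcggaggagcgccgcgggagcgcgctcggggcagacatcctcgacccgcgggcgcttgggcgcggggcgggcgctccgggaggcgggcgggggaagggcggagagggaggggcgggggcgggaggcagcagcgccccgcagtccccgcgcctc

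Genes of mature tubule function were counted beside 2.09% higher and 1.02% lower over all genes tested. At those shares, 0 calls in a list of 9 or 12 genes does not set it apart. Of 19 tubule transport genes tested, 2 rose (Spp1 and the bicarbonate transporter gene Slc4a4, 1.38 ± 0.22) and 0 fell (3 and 2 with the lot as a block), and Slc34a1, Slc5a2, Slc22a6, Slc12a1, Slc12a3, Aqp3 and Bsnd had no UMI. Of 9 glomerular podocyte genes 0 passed edgeR's test, with 2 at an unadjusted p under 0.05 and 2 that rose in DESeq2, while with the lot as a block 2 rose and 2 fell. Nphs1 had no UMI. Of 12 genes of cilia and cystic kidney 0 passed edgeR's test, with 2 at an unadjusted p under 0.05 and 2 that rose in DESeq2. Of 15 Notch pathway genes 1 rose, Jag1 (2.61 ± 0.34, edgeR adjusted p = 0.00200), and 3 with the lot as a block. The calls of Slc4a4 and Jag1 were lost without lot 29, and that of Slc4a4 also without lot 26.

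Retinoic acid genes split: Aldh1a3 (3.13 ± 0.30), Stra6 (2.83 ± 0.26) and Rdh10 (1.65 ± 0.27) rose, Crabp1 fell by 3.22 ± 0.43, and the other 7 tested did not pass. Aldh1a3 makes retinoic acid, Rdh10 makes its precursor retinaldehyde, Stra6 takes up retinol and Crabp1 binds retinoic acid. With the lot as a block 5 rose and 3 fell, and without lot 26 the call of Rdh10 was lost.

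The gonadal lists were lower or did not pass, beside the mixture already described. Of 11 gonadal transcription factors, 2 fell, Lhx9 (-1.44 ± 0.27) and Tcf21 (-2.03 ± 0.30), and with the lot as a block 4 did. Of 12 pre-granulosa genes, Runx1 rose (0.66 ± 0.15) and 0 fell, while with the lot as a block 6 fell. Of 14 stromal genes 9 fell and 0 rose (median -1.66), among them Dcn (-1.84 ± 0.24), Col1a1 (-1.79 ± 0.31) and Pdgfra (-1.33 ± 0.26). Of 10 surface epithelium genes, 3 fell: Upk3b, Lrrn4 and Bnc2. The calls of Lhx9, Runx1, Upk3b and Bnc2 were lost without lot 26 and without lot 29, those of Runx1, Upk3b, Bnc2 and Lrrn4 without lot 30, and that of Lrrn4 also without lot 26. Of the 9 stromal calls 6, 4 and 6 held without lot 26, 29 and 30, and Dcn and Col1a1 held each time, while the call of Pdgfra was lost without any 1 of the lots.

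Hox genes of the B cluster stood out from the other clusters. Of 8 Hoxb genes tested, 6 rose and 0 fell (median 3.21): Hoxb2 (3.27 ± 0.49), Hoxb3 (2.90 ± 0.31), Hoxb4 (3.58 ± 0.42), Hoxb6 (4.09 ± 0.50), Hoxb7 (3.14 ± 0.38) and Hoxb8 (4.88 ± 0.50). Hoxb8 was at 24.1, 49.8 and 29.7 CPM against 1.47, 1.29 and 0.476 CPM (edgeR adjusted p = 0.000388). Of 10 Hoxa genes 0 passed edgeR's test, with 1 at an unadjusted p under 0.05 and 0 in DESeq2. Of 6 Hoxc genes, Hoxc4 and Hoxc5 rose (1.06 ± 0.22 and 1.03 ± 0.24) and Hoxc8 fell by 1.07 ± 0.21, and of 6 Hoxd genes Hoxd9 fell (-1.50 ± 0.23). In the fit with the lot as a block, 7 Hoxb genes and 1 Hoxa gene rose. In that fit 2 Hoxc genes rose and 2 fell, and 2 Hoxd genes fell. The direction of each Hox gene called was the same with DESeq2's size factors and in DESeq2. Hoxb3, Hoxb4, Hoxb6 and Hoxb8 kept their calls without any 1 lot, while Hoxb2 lost its call without lot 26 or 29 and Hoxb7 without lot 26. Without lot 26 the calls of Hoxc4, Hoxc5, Hoxc8 and Hoxd9 were lost as well, and without lot 29 those of the 3 Hoxc genes. Hoxb4 and Hoxb7 were higher in the cells with Lhx1 or Cdh16 than in those with Pax8 alone in every lot. Hoxb4 was at 75.8, 97.9 and 66.2 CPM and Hoxb7 at 114, 108 and 56.1 CPM, against 2.33, 45.3 and 1.96 CPM and 4.66, 0 and 9.80 CPM in the cells with Pax8 alone.

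**Figure D5:**
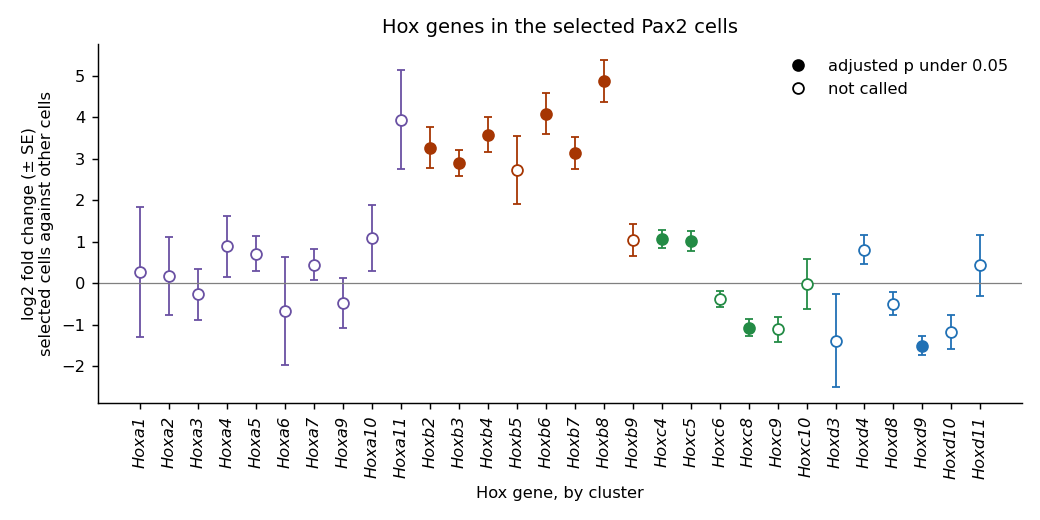
Log2 fold change (y axis, ± SE) of the 30 Hox genes tested between the selected Pax2 cells and all other kept cells (n = 3 lots each), by cluster along the x axis. Filled points passed edgeR's test, which 6 of 8 Hoxb genes did by rising.

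The summed markers of red blood cells, germ cells, myeloid cells and endothelial cells were lower in the selected cells than in the others of the same lot. The 8 red blood cell genes summed to 79.3 to 159 CPM in the selected cells and 1310 to 3861 CPM in the others, and Hba-a2 had no UMI. The 11 germ cell genes, without Dazl, summed to 31.3 to 83.1 CPM against 262 to 524 CPM, and Pou5f1 had no UMI. Of these 11, 6 fell, and 0 of the 6 calls held without lot 29 (5 held without lot 26 or 30). The rule left cells with 5 or more Dazl UMIs among the others only, and its part in these germ cell values was not tested. The 9 myeloid genes summed to 1.84 to 12.1 CPM against 15.3 to 136 CPM, with C1qa, Csf1r and Fcer1g at 0, and 0 of 9 passed edgeR's test (5 at an unadjusted p under 0.05, 2 lower in DESeq2, 6 lower with the lot as a block). The 8 endothelial genes summed to 46.1 to 59.4 CPM against 63.4 to 123 CPM, with Esam at 0, and 0 of 8 passed (4 at an unadjusted p under 0.05, 4 lower in DESeq2, 5 lower with the block). Of 11 stress and immediate early genes and 12 cell cycle genes, 0 passed edgeR's test or DESeq2, with 0 and 1 at an unadjusted p under 0.05. Of 6 Sertoli, 5 steroidogenic and 6 imprinted growth genes tested, 0 passed edgeR's test or DESeq2, with 1, 0 and 2 at an unadjusted p under 0.05. With the lot as a block, 1 Sertoli gene rose and 4 fell, 1 steroidogenic gene fell and 3 imprinted growth genes fell. Of the 6 supporting-like and rete genes, Aldh1a3, Ncam1, Runx1 and Krt18 rose, of which Aldh1a3 held without any 1 lot. Y-linked genes had a UMI in 3, 5 and 1 selected cells, and in 3.65%, 10.7% and 0.863% of the other cells of lots 26, 29 and 30. The shares of selected cells were 6.98%, 15.2% and 2.13%, with exact 95% intervals of 1.46% to 19.1%, 5.11% to 31.9% and 0.0539% to 11.3% that hold the shares of the other cells.

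The next comparison asked how the selected cells differ from the other epithelium of the suspension, the 2966 cells with both Upk3b and Krt19 (970, 823 and 1173 by lot), genes of the ovarian surface epithelium and mesothelium. These cells and the following set are part of the other kept cells, so the comparisons share cells. Of 12036 genes tested, 521 were higher in the selected cells (4.33%) and 340 lower (2.82%), and with the lot as a block 649 and 515. Without lot 26 the counts were 178 and 85, and without lot 30 240 and 135. The genes that rose most were Cldn7 (8.87 ± 0.33, edgeR adjusted p = 5.59e-07), Cldn6 (7.52 ± 0.36), Pnoc (7.36 ± 0.82), Npy (6.75 ± 0.66) and Wfdc2 (6.11 ± 0.32). Cldn7 was at 89.8, 129 and 134 CPM in the selected cells and at 0.0582, 0.462 and 0.233 CPM in the surface cells. Wnt7a had 74 UMIs in the selected cells and 0 in the surface cells, where a floor of 3 UMIs over the whole set makes it at least 604-fold higher.

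The genes that fell most against surface cells were Tmem151a (-3.58 ± 0.25), Tm4sf5 (-3.28 ± 0.19), Hpgd (-3.04 ± 0.32), Myl7 (-2.86 ± 0.21) and Kif26b (-2.83 ± 0.25), 2 of which encode membrane proteins (Tmem151a and Tm4sf5) and 1 the enzyme that inactivates prostaglandins (Hpgd). Tm4sf5 was at 20.1, 24.0 and 19.8 CPM against 192, 212 and 179 CPM. All 7 surface epithelium genes tested fell, including Lrrn4 (-4.19 ± 0.42) and Bnc1 (-2.47 ± 0.25). The comparison cells were chosen on 2 other genes of that list, so these falls follow in part from that choice. Of 29 junction and polarity genes 20 rose and 1 fell (median 3.86, beside 0.01 over all genes), among them Cdh1 (2.47 ± 0.54), and F11r fell by 0.99 ± 0.16. Of these 21 calls 13, 15 and 14 held without lot 26, 29 and 30, and that of Cdh1 was lost each time. Of the 7 surface epithelium calls 5, 4 and 5 held, with Lrrn4 and Bnc1 among them each time. Krt7 fell by 2.06 ± 0.16, and Krt18 was at 267, 359 and 287 CPM against 295, 248 and 250 CPM and did not pass (edgeR adjusted p = 0.727).

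Against surface cells the Hox genes split by cluster in both directions. Hoxb2, Hoxb3, Hoxb4, Hoxb6, Hoxb7 and Hoxb8 rose, by 2.80 (Hoxb3) to 5.83 (Hoxb8), and Hoxc6, Hoxc8, Hoxc9, Hoxd8, Hoxd9 and Hoxd10 fell. Hoxd9 was at 30.8, 42.4 and 22.6 CPM in the selected cells against 164, 187 and 195 CPM (-2.61 ± 0.21, edgeR adjusted p = 3.85e-05). Ret rose by 3.97 ± 0.71 and Jag1 by 3.13 ± 0.36. Of the selected cells with a Ret UMI, 7 held Pax8 alone and 1 held Lhx1 or Cdh16. Wnt4 and Fst, the follistatin gene of supporting cells, also rose (1.38 ± 0.22 and 1.55 ± 0.19), and Aldh1a2, the retinoic acid enzyme of mesothelium and mesonephros, fell by 1.72 ± 0.24. In thinned cells, Wnt4 had a UMI in 78.6% of the cells with Pax8 alone and in 30.8% of those with Lhx1 or Cdh16. The share of the surface cells was 35.2%, so the cells with Lhx1 or Cdh16 were not above them. All 6 Hoxb calls held without any 1 lot, while 2 of the 6 Hoxc and Hoxd calls held without lot 26 (Hoxc8 and Hoxd9). The call of Ret was lost without lot 26 or 30, and that of Wnt4 without lot 26.

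The last comparison was with 205 cells that held Pax8 and Aldh1a3 but were not selected (80, 30 and 95 by lot), since Pax8 with Aldh1a3 is known from supporting-like cells. These cells were shallower, with medians of 8862.5, 7131.5 and 9674 UMIs. Of 8000 genes tested, 131 were higher in the selected cells (1.64%) and 77 lower (0.963%), and with the lot as a block 310 and 268. Most of the 131 and 77 calls were lost without lot 26. In that fit 12 genes were higher and 0 lower by edgeR's test, with 426 lower at an unadjusted p under 0.05. Npy (6.27 ± 0.81), Wfdc2 (4.40 ± 0.39), Prss23 (4.19 ± 0.38), Spp1 (4.11 ± 0.38) and Mecom (3.93 ± 0.46) rose most. Npy was at 255, 310 and 45.3 CPM in the selected cells and at 3.12, 0 and 2.63 CPM in the comparison cells, and without lot 26 its edgeR adjusted p was 0.121. Wnt7a had 0 UMIs in the 205 cells, which makes it at least 29.3-fold higher in the selected cells on a floor of 3 UMIs over the set.

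The largest falls against these cells were Itm2a (-2.19 ± 0.27), Ifit2 (-2.04 ± 0.30), Tagln (-2.02 ± 0.33), Fbln2 (-1.95 ± 0.36) and Il6st (-1.85 ± 0.33), and without lot 26 their edgeR adjusted p-values ran from 0.0616 (Itm2a) to 0.138 (Ifit2 and Il6st). Tagln shares exonic bases with Pcsk7 on the other strand, so its counts may hold reads of both. Wnt4 was at 485, 260 and 512 CPM against 761, 1092 and 1028 CPM and fell by 1.18 ± 0.23. Of 12 cell cycle genes, Mki67, Top2a, Cdk1, Birc5 and Mcm3 rose and 0 fell (list median 1.26, beside -0.01 over all genes), but 0 of the 5 calls held without lot 26, and 3 held without lot 29. With the lot as a block 8 rose. Hoxb3, Hoxb4, Hoxb7 and Hoxb8, the 4 Hoxb genes tested, all rose, by 2.72 (Hoxb7) to 4.28 (Hoxb4), and without lot 26 that of Hoxb8 alone held. The call of Wnt4 was lost without lot 26 too. Gata4 (-0.61 ± 0.29) and Nr5a1 (0.00 ± 0.29) did not pass, with an edgeR adjusted p of 0.316 for Gata4.

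The 3 genes whose level in the selected cells set 1 lot furthest from the others were Uncx, Atf3 and Hspa1b. Uncx, a homeobox gene of somites and kidney, was at 84.8 CPM in lot 29 and had no UMI in the selected cells of lots 26 and 30. Atf3 was at 815 CPM in lot 30 against 69.7 and 64.5 CPM, and in the other kept cells at 773 CPM against 67.6 and 143 CPM. Hspa1b was at 316 CPM in lot 30 against 29.5 and 22.1 CPM, and in the other kept cells at 161 CPM against 37.4 and 39.8 CPM. Both encode stress response proteins, and both were higher in lot 30 among selected and other cells alike, whereas Uncx was at 0.874 CPM in the other cells of lot 29.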

How the data were processed

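UMI counts per gene and cell were deposited for 3 lots. The authors made these UMI counts from reads placed once on GRCm38 by STAR 2.7, using UMI-tools for barcodes and molecules and featureCounts 2.0.1 for genes. The annotation release and strand setting are not given in the sources used here. Counts were used as deposited, without normalization. Cells with 200 to 9000 genes and at most 10% mitochondrial UMIs were kept. The members and gene lists were chosen with earlier results of these data known.

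UMIs were summed per lot and set. The sums were compared in edgeR 4.0.16 by its quasi-likelihood test, after TMM scaling and the filterByExpr filter on low counts, and p-values were adjusted after Benjamini and Hochberg over all genes with a threshold of 0.05. Rule genes stayed in the fit and were not counted or named as results. Each SE was worked back from the test, as the absolute log2 fold change over the square root of its F statistic. P-values measure the spread between the sums of 3 lots of pooled embryos, which includes the sampling of few selected cells. The main test did not use the pairing of sums within a lot. The sets of a lot come from 1 suspension: deviations of the same lot correlated with r of 0.325, 0.416 and 0.478 over 7601 genes, so lots pair the sums. Alternatives were a block for lot, DESeq2 1.42.0, its size factors, no low-count filter, each lot left out, stricter rules, doublets removed (Scrublet in scanpy 1.11.5), a stricter cell filter and depth-matched other cells. The planned test of cells with Gata3 against those without was not run, since lots held 8, 2 and 5 such cells, under the minimum of 10. Named genes were the 15 largest rises and 8 largest falls (5 and 5 in the later comparisons) past the threshold, in the same direction in 3 of 3 lots, with a mean of at least 50 CPM in the higher group; list genes were also named, as were 3 genes, of at least 50 CPM somewhere, in which a single lot lay furthest from the remaining lots on log2(CPM + 1), and Spink8 was chosen after its values were seen. Positions are from GENCODE M21 on GRCm38, and the promoter from RefSeq. Results for a few genes of the lists are not reported here. Intervals and floors (3 UMIs) cover counting error only. The test was checked on simulated data drawn without a shared effect of the lot, so that check does not cover paired sums.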

Additional observations from a re-analysis of the deposited data

How the results depend on the processing

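Over 43 named results and 496 alternatives, 479 kept direction and call, 17 kept direction and lost the call, and 0 reversed. The calls lost are given beside the genes, and Hba-x was also not called with DESeq2's size factors, with Pax2 at 2 or more UMIs, or under the stricter cell filter (edgeR adjusted p of 0.0579, 0.0637 and 0.0589).

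Against all other kept cells, the 308 higher genes became 653 in DESeq2, 521 with the lot as a block, 529 with at least 2 UMIs of Pax2, 682 with at least 2 partner genes, and 114 to 219 with a lot left out. The 150 lower genes became 277, 614, 561, 1005 and 27 to 87. Against surface cells, the 521 higher genes became 178 to 388 with a lot left out, and the 340 lower genes 85 to 329, 512 without a low-count filter, 515 with the block and 677 with at least 2 partner genes. Against cells with Pax8 and Aldh1a3, the 131 higher genes became 414 without the filter, 310 with the block, 532 with at least 2 UMIs of Pax2, 737 with at least 2 partner genes and 12 to 138 with a lot left out. The 77 lower genes became 294, 268, 534, 770 and 0 to 71. The mean share of 0.423% became 0.169% with at least 2 UMIs of Pax2, 0.161% with at least 2 partner genes and 0.135% in thinned cells. A left-out lot leaves 2 sums a group. The cause of the other changes was not tested. In the paired model with the lot as a block, 453 of 458, 839 of 861 and 208 of 208 calls kept their direction and call, and no named gene changed. Of the list genes called, 41, 40 and 62 of 74 kept the call against all other kept cells without lot 26, 29 and 30, then 50, 61 and 59 of 85 against surface cells and 7, 26 and 28 of 31 against cells with Pax8 and Aldh1a3, and 0 changed sign.

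The alternatives to the test of cells with Gata3 were not run, since that test was not run. Without the low-count filter the median log2 fold change over all genes was -0.15 against all other kept cells and -0.11 against surface cells. The 542505 to 746199 UMIs of the selected cells of a lot limit what can be seen, and genes with few UMIs were not tested.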

Other observations

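Uncx set lot 29 apart among the selected cells. It had 46 UMIs in 10 of the 33 selected cells of lot 29, up to 16 in a cell, and 0 UMIs in the 43 and 47 selected cells of lots 26 and 30. Among unselected cells, lot 29 had 22 with a UMI of Uncx, lot 26 had 2 and lot 30 had 0. Of the 10 cells, 7 held Lhx1 or Cdh16 and 1 held Wnt7a.

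Some of the 10 cells also held Hoxa11, Hoxd11, Hoxa10, Six2 or Sall1, genes that were chosen after their values were seen. In lot 29, Hoxa11 had a UMI in 8 selected cells, Hoxd11 in 7, Hoxa10 in 6 and Six2 in 3, and every one of these cells held Uncx. Six2 is known from nephron progenitors of the metanephros, and Hoxa11 and Hoxd11 are needed there. Sall1, a zinc finger factor of the same tissue, had a UMI in 11 selected cells of lot 29, of which 6 held Uncx. Among the selected cells of lots 26 and 30, Six2, Hoxa11 and Sall1 had 0 UMIs, while Hoxd11 had 3 UMIs in 1 cell and Hoxa10 2 UMIs in 2 cells of lot 30. Wfdc2 had a UMI in 9 of the 10 cells, Lhx1 in 7, Npy and Wnt4 in 6 each, Epcam in 4 and Gata4 in 1. These 5 genes were also found in unselected cells of every lot: Sall1 in 318, 194 and 320 cells of lots 26, 29 and 30, Hoxd11 in 443, 354 and 489, Hoxa10 in 310, 208 and 282, Hoxa11 in 66, 50 and 30, and Six2 in 28, 27 and 27. The difference between lots was not tested, since each lot is 1 sample.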
